A study of Mus musculus with 12 samples.

Results

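Hif1a and 9 of its hypoxia targets were followed in mouse macrophages exposed to monophosphoryl lipid A (MPLA), a detoxified lipid A that acts through Toll-like receptor 4. The 10 genes were chosen by symbol, and all of them had a row in each of the 3 comparison tables, out of 20884 genes listed in all 3. The cells were bone marrow-derived macrophages, grown from the marrow of male C57BL/6 mice aged 8 to 16 weeks. The marrow was cultured for 7 days with serum (10%) and with macrophage colony stimulating factor (M-CSF, 10 ng/mL), the growth factor that turns marrow cells into macrophages. The 4 groups of 3 RNA-seq libraries were cells primed with MPLA for 4 h, cells primed for 24 h, cells harvested 3 d after priming had ended, and controls that received no MPLA. M-CSF stayed in the medium of every group. The labels give neither the MPLA dose, nor the length of priming of the last group, nor the day on which the controls were harvested, nor the oxygen in the incubator, nor whether a group's replicates came from different mice. The p-values therefore reflect the scatter among the 3 libraries of a group, part or all of which could be technical.

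HIF-1 alpha, the protein of Hif1a, is the oxygen-regulated subunit of the transcription factor HIF-1. In oxygen the prolyl hydroxylases of the Egln family mark it for capture by the VHL ubiquitin ligase and for destruction, and when oxygen is short it escapes, pairs with Arnt and binds a short core sequence near its target genes. In macrophages, signals from Toll-like receptor 4 are known to raise Hif1a transcription as well, and HIF-1 is known for driving glycolysis and inflammatory genes there. The libraries measured RNA only, so the level of the HIF-1 alpha protein was not read.

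The core bound by HIF-1 is ACGTG or GCGTG. It was searched on both strands in windows of 300 bases around RefSeq gene starts (GRCm38.p6), from 250 bases before to 50 after, for the 9 of 10 genes that had an entry. The core was found in at least 1 window of all 9 genes and in 10 of their 12 windows. Per window, the shares were 43.8% of all 32851 windows and 59.3% of the 13906 windows of genes tested at 4 h. The windows without it were the outermost of Vegfa (chr17:46032328-46032627) and of Mxi1 (chr19:53310256-53310555), which hold the start of the annotated gene. The cores of Vegfa and Mxi1 thus lay only in windows further inside the gene. The windows of Hif1a, P4ha2 and Ankrd37 also lay inside the annotated gene and did not hold its start. Those starts are at 73901375 for Hif1a, 54100095 for P4ha2 and 46005707 for Ankrd37, which is on the minus strand. The P4ha1 window held the annotated start (59323296). An ACGTG within CACGTG is read on both strands, so overlapping cores were counted separately, and a match shows no binding. The windows of 4 genes are shown because these genes took different courses although each holds the core. Hif1a (chr12:73907617-73907916, plus strand, 3 cores) and P4ha1 (chr10:59323046-59323345, plus strand, 3 cores) were higher than in the controls at all times. P4ha2 (chr11:54100674-54100973, plus strand, 4 cores), the sister of P4ha1, was lower at 4 h, and Ankrd37 (chr8:45999801-46000100, minus strand, 4 cores) was lower at 4 h and at 3 d after priming. Capitals mark the core on either strand.
Hif1a: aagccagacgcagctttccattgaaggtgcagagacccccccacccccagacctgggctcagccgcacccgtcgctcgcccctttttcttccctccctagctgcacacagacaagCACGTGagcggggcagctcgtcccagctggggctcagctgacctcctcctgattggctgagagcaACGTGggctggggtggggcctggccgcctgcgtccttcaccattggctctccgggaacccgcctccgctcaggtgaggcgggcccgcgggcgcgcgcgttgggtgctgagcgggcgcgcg
P4ha1: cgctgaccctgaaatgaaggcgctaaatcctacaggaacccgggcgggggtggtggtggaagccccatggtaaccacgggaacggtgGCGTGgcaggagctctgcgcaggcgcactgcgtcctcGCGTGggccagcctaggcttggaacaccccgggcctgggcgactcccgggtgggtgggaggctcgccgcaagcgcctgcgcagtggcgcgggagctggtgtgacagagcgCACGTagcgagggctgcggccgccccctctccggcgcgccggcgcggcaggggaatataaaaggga
P4ha2: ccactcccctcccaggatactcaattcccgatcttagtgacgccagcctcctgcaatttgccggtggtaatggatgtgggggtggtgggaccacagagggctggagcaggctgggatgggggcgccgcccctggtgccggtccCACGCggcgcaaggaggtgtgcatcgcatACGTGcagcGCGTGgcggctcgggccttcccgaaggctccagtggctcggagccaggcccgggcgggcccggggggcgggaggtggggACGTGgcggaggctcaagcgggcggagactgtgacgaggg
Ankrd37: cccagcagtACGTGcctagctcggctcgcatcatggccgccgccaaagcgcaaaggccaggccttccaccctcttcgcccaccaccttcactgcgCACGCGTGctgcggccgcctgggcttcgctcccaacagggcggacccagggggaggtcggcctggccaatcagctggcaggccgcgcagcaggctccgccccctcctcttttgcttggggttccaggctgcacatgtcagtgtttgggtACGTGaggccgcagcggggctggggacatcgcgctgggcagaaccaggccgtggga

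The 10 genes did not move as a block. At 4 h, 3 of the 10 rose (Hif1a, P4ha1 and Adm) and 7 fell, by DESeq2 in the authors' deposited table. Of all genes tested at 4 h, 62.9% were called, 31.8% higher and 31% lower. At 24 h the same 3 genes were higher, 4 were lower (Egln1, Vegfa, Ndrg1 and Mxi1), and P4ha2, Egln3 and Ankrd37 did not pass the test in the authors' deposited table. The share called over all genes at 24 h was 64.6%, with 32.4% higher and 32.2% lower, so the 7 called of 10 lie near the background. Harvested 3 d after priming, 5 of the 9 tested genes were higher (Hif1a, Egln1, P4ha1, P4ha2 and Vegfa), 3 were lower (Ankrd37, Ndrg1 and Mxi1), and Egln3 did not pass in the authors' deposited table. Over all genes 55.2% were called at that time, 29.5% higher and 25.8% lower. By edgeR in the authors' deposited tables, 3 genes were higher and 7 lower at 4 h, 3 higher and 6 lower at 24 h, and 6 higher and 3 lower at 3 d after priming. All 10 had an adjusted p with edgeR at each time. The edgeR background was 63.6% called at 4 h (13.5% higher, 50.1% lower), 58% at 24 h (16.2% higher, 41.8% lower) and 43.3% at 3 d after priming (15.5% higher, 27.7% lower).

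The median log2 change, MPLA over control, of the 9 genes with reads in both groups was -0.58 at 4 h, -0.25 at 24 h and 0.32 at 3 d after priming in the authors' deposited tables with DESeq2, against -0.04, -0.05 and -0.02 over all tested genes. In the authors' edgeR columns the median of the 9 genes was -1.52, -0.67 and 0.19, against -0.97, -0.46 and -0.15 over all tested genes. For most tested genes the 2 sets of columns differed by nearly a constant in each of the authors' deposited tables. Its median was 0.94 at 4 h, 0.41 at 24 h and 0.13 at 3 d after priming, with edgeR lower. Sizes at 4 h thus depend on the scaling, and the edgeR value at 4 h is given beside the DESeq2 value. Differences between genes of a table depend on it little. Some genes described below departed from the constant at 3 d after priming. There edgeR was higher for Camp (2.97, 1.43 with DESeq2), Pgf (2.93, 1.59 with DESeq2) and Ak4 (2.27, 2.04 with DESeq2). It was lower by more than the constant for Ramp2 (-2.42, -1.42 with DESeq2). All 3 comparisons share the same 3 controls, so values at different times are set side by side and their difference was not tested.

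**Figure D1:**
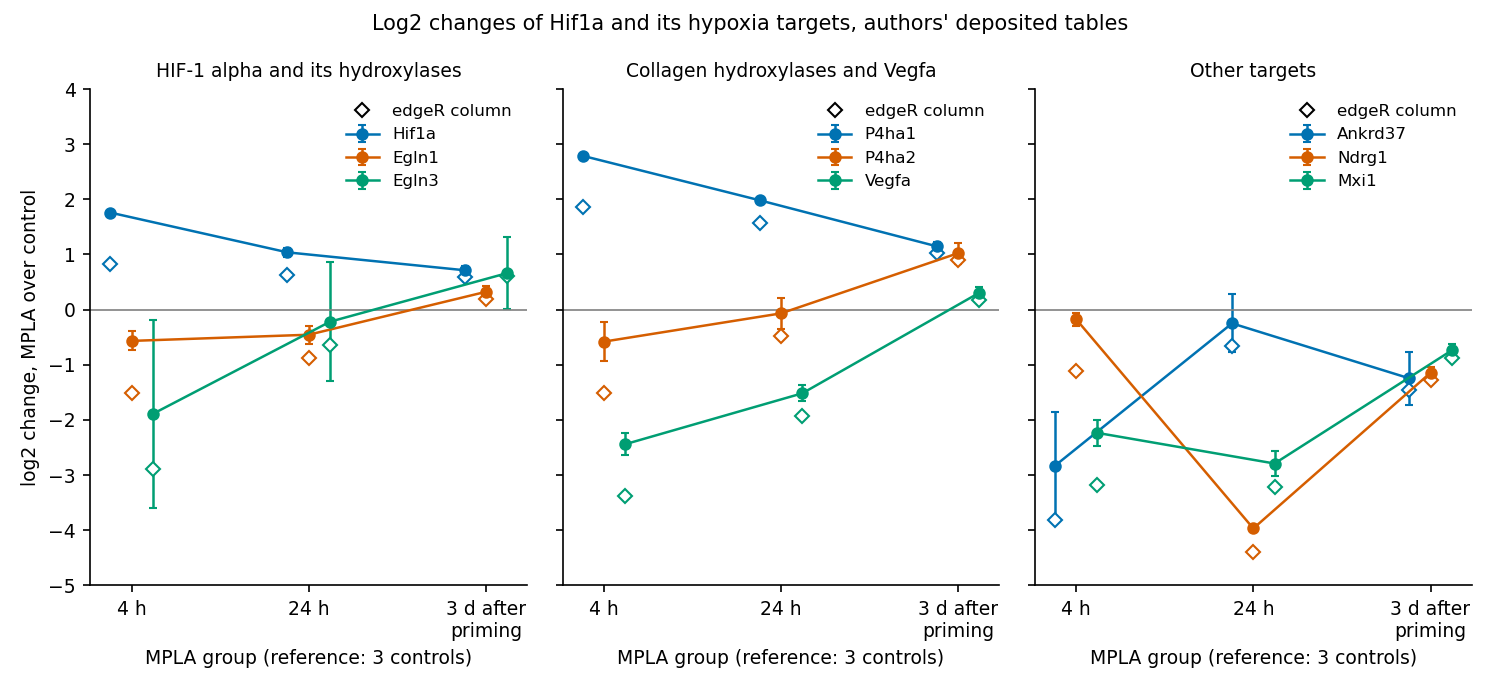
Log2 change, MPLA over control (vertical axis), of 9 of the genes at 4 h, 24 h and 3 d after priming, each against the same 3 controls (3 libraries per group). Filled circles are DESeq2 values of the authors' deposited tables with 95% intervals implied by the deposited p-values (no bar where the p-value is stored as 0), open diamonds are the authors' edgeR columns, and lines join the times only to guide the eye. Hif1a and P4ha1 lie above 0 at each time, Ndrg1 and Mxi1 below, and Vegfa and Egln1 lie below 0 at 4 h and 24 h and above it at 3 d after priming. Adm is left out because it was listed at 0 in the controls.

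Hif1a itself (ENSMUSG00000021109, chromosome 12, 73901375 to 73947530) was higher at each time, with smaller values at the later times. Its transcript was 3.39-fold higher at 4 h in the authors' deposited table, a log2 change of 1.76 and an adjusted p that DESeq2 stored as 0, and 1.77-fold higher in the edgeR column. At 24 h it was 2.05-fold higher than in the controls in the authors' deposited table (log2 1.04 ± 0.04, standard error, 3 libraries per group; DESeq2 adjusted p = 1.534e-149). At 3 d after priming it was still 1.64-fold higher than in the controls in the authors' deposited table (log2 0.71 ± 0.04; DESeq2 adjusted p = 8.271e-72). With edgeR it was 1.54-fold higher at 24 h and 1.50-fold higher at 3 d after priming. The size of the decline over the times thus depends on the scaling and is much smaller with edgeR. Its change exceeded that of 86.1% of tested genes at 4 h, 85.4% at 24 h and 90.0% at 3 d after priming. Standard errors here are those implied by a deposited log2 change and its p-value if that p-value came from a Wald test. Of the exonic bases of Hif1a, 5.60% lie opposite exons of another gene and 2.51% overlap one on the same strand, so a small share of its reads is uncertain.

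Among the prolyl hydroxylases that mark HIF-1 alpha for destruction, Egln1 and Egln3 were called lower at 4 h, and Egln2, described with the regulators, was called lower by edgeR but higher by DESeq2 in the authors' deposited table. Egln1 (ENSMUSG00000031987, chromosome 8, 124908587 to 124949324) encodes PHD2, the main oxygen sensor of the pathway. It was 1.48-fold lower at 4 h in the authors' deposited table (log2 -0.57 ± 0.09, -1.51 with edgeR; DESeq2 adjusted p = 3.23e-10) and 1.37-fold lower at 24 h (-0.46 ± 0.08; 6.919e-08). By 3 d after priming it was 1.25-fold higher than in the controls in the authors' deposited table (0.32 ± 0.06; DESeq2 adjusted p = 3.185e-08). The log2 change of Hif1a stood 2.33 above that of Egln1 at 4 h, 1.49 above it at 24 h and 0.39 above it at 3 d after priming in the authors' deposited tables, and edgeR gave nearly the same differences.

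Egln3 (ENSMUSG00000035105, chromosome 12, 54178981 to 54203860) encodes PHD3, a hydroxylase that is itself a hypoxia target. In the authors' deposited table its log2 change at 4 h was -1.89 ± 0.87, and its DESeq2 adjusted p of 0.0469 became 0.0586 when every deposited p-value entered the adjustment. The edgeR column of the authors' deposited table gave -2.89 with an adjusted p of 7.555e-07. At 24 h Egln3 did not pass (log2 -0.22, 95% interval -1.30 to 0.86; DESeq2 adjusted p = 0.752) in the authors' deposited table. Egln3's log2 change of 0.66 at 3 d after priming missed the threshold with DESeq2 (adjusted p = 0.0823) and met it narrowly with edgeR (0.61; adjusted p = 0.0483) in the authors' deposited table. Its wide intervals set it apart from Egln1, whose values were far more precise.

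P4ha1 and P4ha2 encode alternative catalytic subunits of the prolyl 4-hydroxylase that modifies collagen, an enzyme of the same oxygen-using class as the Egln proteins. P4ha1 (ENSMUSG00000019916, chromosome 10, 59323296 to 59373304) was the most raised of the 9 genes with a fold at all 3 times. It was 6.91-fold higher at 4 h (log2 2.79; 1.85 with edgeR), 3.95-fold higher at 24 h (1.98) and 2.21-fold higher at 3 d after priming (1.15 ± 0.04; DESeq2 adjusted p = 2.115e-159) in the authors' deposited tables. It exceeded 92.2%, 93.2% and 94.6% of tested genes at these times.

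P4ha2 (ENSMUSG00000018906, chromosome 11, 54100095 to 54131665) took another course. It was 1.50-fold lower at 4 h in the authors' deposited table (log2 -0.58 ± 0.18, -1.52 with edgeR; DESeq2 adjusted p = 0.00214). At 24 h its log2 change was -0.07 (95% interval -0.35 to 0.21; DESeq2 adjusted p = 0.697) in the authors' deposited table, where edgeR called it lower (-0.48; adjusted p = 1.197e-06). Once 3 d had passed after priming it was 2.03-fold higher than in the controls in the authors' deposited table (1.02 ± 0.10; DESeq2 adjusted p = 6.296e-25). P4ha1 stood 3.37 above P4ha2 on the log2 scale at 4 h, 2.05 above it at 24 h and 0.12 above it at 3 d after priming in the authors' deposited tables.

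Vegfa and Adm encode secreted factors that act on vessels, and both are textbook HIF-1 targets. Vegfa (ENSMUSG00000023951, chromosome 17, 46016993 to 46032369), vascular endothelial growth factor A, was 5.43-fold lower at 4 h in the authors' deposited table (log2 -2.44 ± 0.10, -3.38 with edgeR; DESeq2 adjusted p = 1.66e-130) and below all but 7.61% of tested genes. At 24 h it was 2.86-fold lower than in the controls in the authors' deposited table (-1.52 ± 0.07; DESeq2 adjusted p = 4.007e-96). At 3 d after priming it was 1.24-fold higher than in the controls in the authors' deposited table (0.31 ± 0.05; DESeq2 adjusted p = 2.269e-09), and 1.13-fold higher with edgeR. The gap between Hif1a and Vegfa was thus 4.20 on the log2 scale at 4 h, 2.56 at 24 h and 0.41 at 3 d after priming in the authors' deposited tables.

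Adm (ENSMUSG00000030790, chromosome 7, 110627661 to 110629820), which encodes the vasodilator peptide adrenomedullin, was listed at 0 in the controls in the authors' deposited tables, so no fold is given. It was called higher at 4 h (DESeq2 adjusted p = 1.319e-06) and at 24 h (0.00952) in the authors' deposited tables. In the group harvested 3 d after priming Adm had no adjusted p from DESeq2, and edgeR gave 0.0584 in the authors' deposited table. Vegfa and Adm therefore lay on opposite sides of the controls during exposure.

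Mxi1, Ndrg1 and Ankrd37 were lower wherever they passed the test. Mxi1 (ENSMUSG00000025025, chromosome 19, 53310518 to 53375810) encodes a partner of MAX that opposes MYC. It was 4.71-fold lower at 4 h (log2 -2.24 ± 0.12, -3.18 with edgeR; DESeq2 adjusted p = 4.805e-80), 6.92-fold lower at 24 h (-2.79 ± 0.11; 1.871e-137) and 1.67-fold lower at 3 d after priming (-0.74 ± 0.06; 3.773e-31) in the authors' deposited tables.

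Ndrg1 (ENSMUSG00000005125, chromosome 15, 66929318 to 66969640), a gene that responds to hypoxia and other stress, had its lowest value at 24 h. It was 15.7-fold lower then in the authors' deposited table (log2 -3.97; DESeq2 adjusted p stored as 0), below all but 1.54% of tested genes. At 4 h it lay only 1.13-fold below the controls with DESeq2 (-0.17 ± 0.06; adjusted p = 0.00687) and 2.16-fold below them with edgeR in the authors' deposited table. Its value at 3 d after priming was 2.21-fold lower than in the controls in the authors' deposited table (-1.15 ± 0.05; DESeq2 adjusted p = 1.886e-96). Other genes lie opposite 8.43% of its exonic bases.

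Ankrd37 (ENSMUSG00000050914, chromosome 8, 45996902 to 46005707) encodes a small ankyrin repeat protein. It was 7.12-fold lower at 4 h in the authors' deposited table (log2 -2.83 ± 0.50, -3.82 with edgeR; DESeq2 adjusted p = 3.807e-08) and 2.37-fold lower at 3 d after priming (-1.25 ± 0.24; 1.096e-06). At 24 h the value was -0.25 (95% interval -0.77 to 0.27; DESeq2 adjusted p = 0.429) in the authors' deposited table, while edgeR called it lower (-0.67; adjusted p = 0.00374). Overlap with other genes adds to the uncertainty of its values. Exons of Lrp2bp and Ufsp2 on the opposite strand cover 26.4% of its exonic bases, and 17.0% of its 50-base windows also occur in transcripts of other genes.

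**Figure D2:**
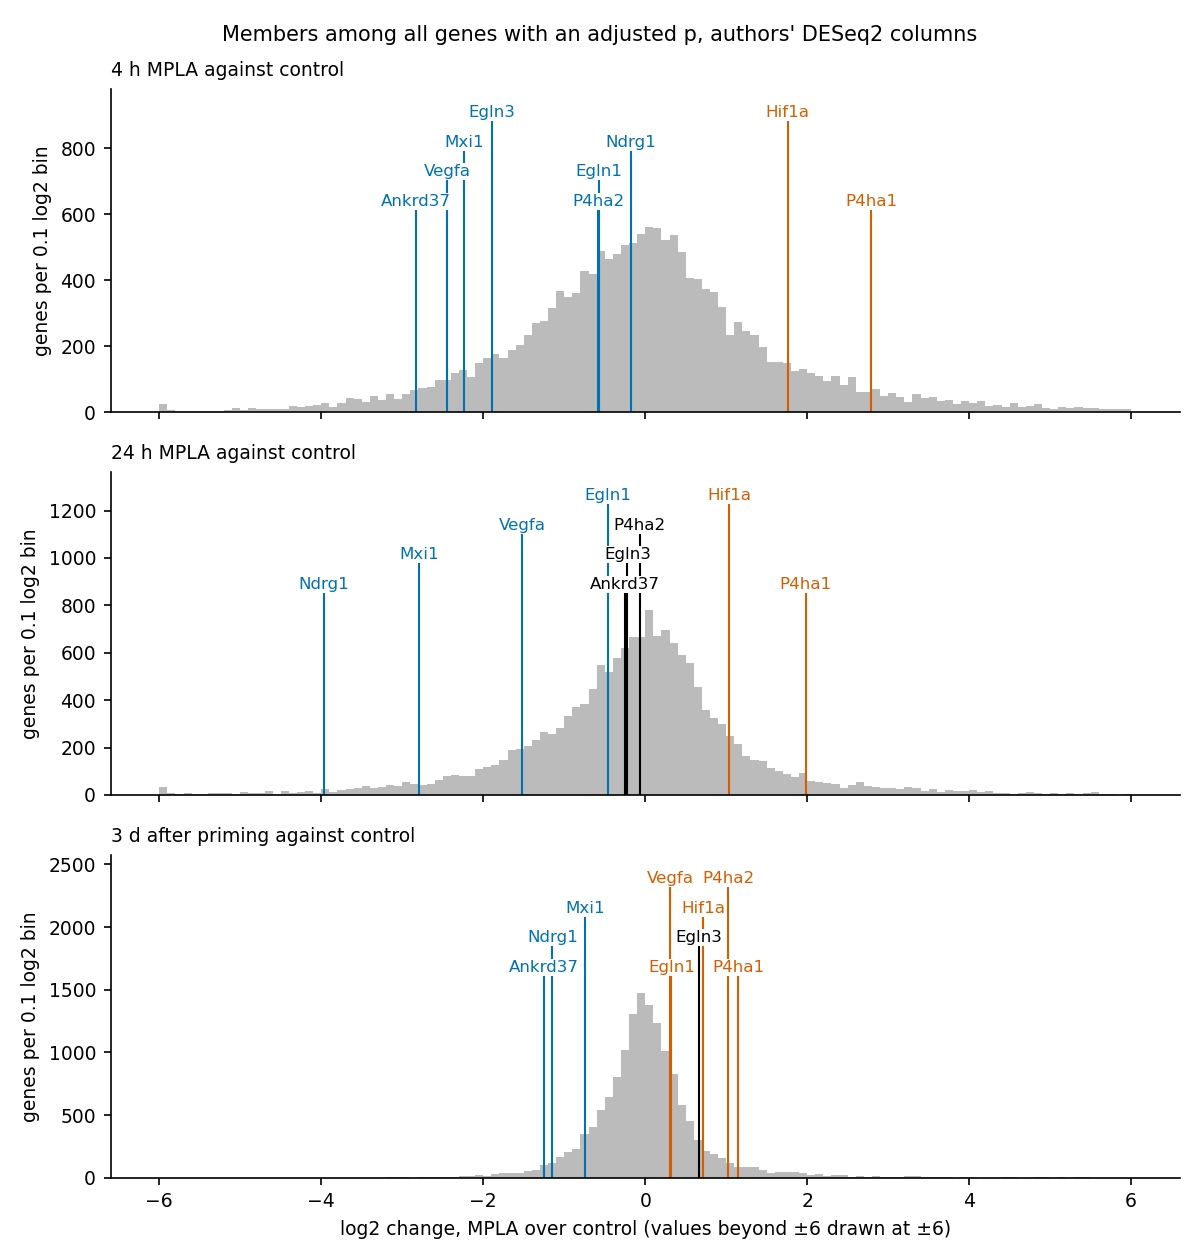
Distribution of log2 changes, MPLA over control (horizontal axis), of all genes with an adjusted p and reads in both groups in the authors' deposited tables with DESeq2, as genes per bin (vertical axis), at 4 h, 24 h and 3 d after priming. Lines mark 9 of the genes described, with those called higher in orange, those called lower in blue and those not called in black; line heights only separate the names. P4ha1 and Hif1a lie on the right flank at each time, Ndrg1 moves to the far left at 24 h, and the whole distribution is narrower at 3 d after priming.

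The wider pathway was read from 5 lists of 83 further genes. At 4 h, 40 rose and 26 fell of 78 tested by DESeq2 in the authors' deposited table, but edgeR put 26 higher and 45 lower. The counts at 24 h were 52 and 21 of 77 in the DESeq2 column of the authors' deposited table and 41 and 30 in the edgeR column. Harvest 3 d after priming gave 44 and 17 of 77 in the DESeq2 column of the authors' deposited table and 36 and 24 in the edgeR column. The edgeR counts are of 82 genes at 4 h and of 83 at 24 h and 3 d after priming. The lists' median log2 change was 0.27, 0.60 and 0.24 at these times with DESeq2 in the authors' deposited tables, against -0.67, 0.19 and 0.10 with edgeR. Both sets lie above the medians of all tested genes given above, and at 4 h they differ in sign. These counts stand beside the shares over all genes, which were 31.8% higher and 31% lower at 4 h, 32.4% and 32.2% at 24 h, and 29.5% and 25.8% at 3 d after priming with DESeq2. The same shares with edgeR were 13.5% and 50.1%, 16.2% and 41.8%, and 15.5% and 27.7%.

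Among 16 regulators of HIF, 12 of 15 tested rose and 2 fell at 4 h, 13 of 16 rose and 3 fell at 24 h, and 10 of 16 rose and 2 fell at 3 d after priming with DESeq2 in the authors' deposited tables. With edgeR the higher and lower counts were 5 and 8, 7 and 6, and 4 and 4. Epas1, which encodes HIF-2 alpha, was lower with both tools at each time, with log2 changes of -1.20 ± 0.18, -4.61 ± 0.33 and -1.66 ± 0.14 in the authors' deposited tables, while Hif1a was higher. Hif1an, the asparagine hydroxylase that blocks HIF's transactivation, was also lower with both tools each time (-0.51, -0.34 and -0.21) in the authors' deposited tables. Hif3a, the remaining alpha subunit gene, was not listed at 4 h. It was called higher at 24 h and 3 d after priming while listed at 0 in the controls in the authors' deposited tables.

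Cited2, which competes with HIF-1 for the coactivators CBP and p300, stood at 3.43 at 4 h and at -0.59 at 24 h in the authors' deposited tables, both called with both tools, and at 0.12 at 3 d after priming, where edgeR gave -0.01 with no call. Siah2, a ubiquitin ligase known to target PHD3, was higher at 4 h (2.58 ± 0.09) and 24 h (1.66 ± 0.10) with both tools and did not pass at 3 d after priming (0.17; DESeq2 adjusted p = 0.13) in the authors' deposited tables. Its relative Siah1a stood at 0.91, 0.33 and -0.09 with DESeq2, and edgeR gave -0.02, -0.09 and -0.23 in the authors' deposited tables. Arnt2, a relative of Arnt, was higher with both tools at each time (2.22, 1.93 and 1.05) in the authors' deposited tables. Arnt, the usual partner of HIF-1 alpha, was called higher with DESeq2 each time (0.18, 0.15 and 0.12) and lower with edgeR at 4 h and 24 h (-0.76, -0.26 and, not called, -0.01) in the authors' deposited tables.

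The VHL ligase and its parts were mostly higher with DESeq2. Cul2, its scaffold, stood at 2.50, 0.60 and 0.23 in the authors' deposited tables, and was called higher with edgeR at 4 h and 24 h. Vhl stood at 1.00, 0.67 and 0.16, where edgeR gave 0.07, 0.26 and 0.03 and called only the 24 h value in the authors' deposited tables. Tceb1, elongin C, stood at 1.23, 0.79 and 0.01, the first pair called higher with both tools, in the authors' deposited tables. Tceb2, elongin B, stood at 0.32, 0.35 and 0.28 with DESeq2 and at -0.61, -0.06 and 0.15 with edgeR in the authors' deposited tables. Rbx1, the ring subunit, stood at 0.75, 0.68 and 0.39 with DESeq2 and at -0.19, 0.27 and 0.26 with edgeR in the authors' deposited tables. Egln2, the remaining Egln hydroxylase gene, stood at 0.49, 0.25 and 0.00 with DESeq2 and at -0.44, -0.17 and -0.13 with edgeR in the authors' deposited tables. For the coactivators, Ep300 stood at 0.05, 0.11 and 0.12 and Crebbp at 0.35, 0.33 and 0.16 with DESeq2, and edgeR put both below 0 at 4 h and 24 h in the authors' deposited tables.

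**Figure D3:**
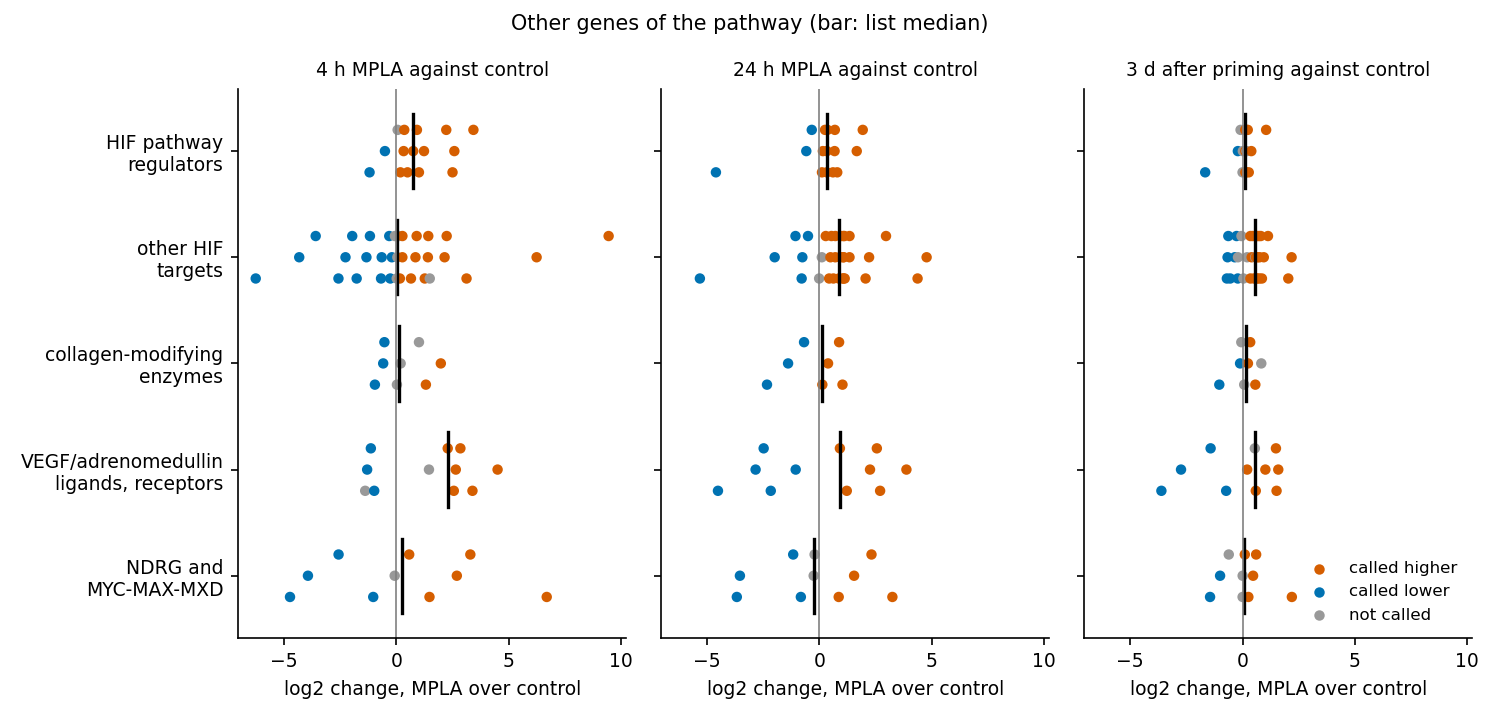
Log2 change, MPLA over control (horizontal axis), of the tested genes of 5 further lists of the pathway (rows) at 4 h, 24 h and 3 d after priming, as DESeq2 gave it in the authors' deposited tables. Each point is a gene with reads in both groups, in orange where called higher, in blue where called lower and in grey where not called; vertical offsets only separate points, and the black bar is the list's median. Other HIF targets spread to both sides of 0 at 4 h, with a median of 0.04, and lie mostly to the right at 24 h and at 3 d after priming, with medians of 0.89 and 0.54.

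Other HIF targets were split at 4 h and mostly higher later. Of 33, 14 rose and 14 fell at 4 h (8 and 22 with edgeR), 24 of 32 rose and 6 fell at 24 h (21 and 9), and 20 of 32 rose and 7 fell at 3 d after priming (20 and 9) in the authors' deposited tables. The edgeR counts are of 33 genes at each time. Ak4, which encodes a mitochondrial adenylate kinase, was among the highest at 4 h (6.24) and at 24 h (4.37) in the authors' deposited tables. At 3 d after priming Pfkfb3, which raises the activator of phosphofructokinase, and Ak4 were highest (2.18 and 2.04) in the authors' deposited table. Cxcr4, the receptor of the chemokine CXCL12, and Ddit4, an inhibitor of mTORC1, were lowest at 4 h (-6.27 and -4.33) and at 24 h (-5.33 and -2.00) in the authors' deposited tables. The lowest at 3 d after priming were the glucose transporter gene Slc2a3 (-0.70) and Pdk1, a pyruvate dehydrogenase kinase (-0.67), in the authors' deposited table.

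Among the other collagen-modifying enzymes, 3 rose and 3 fell of 9 tested at 4 h, 5 rose and 3 fell of 8 at 24 h, and 3 rose and 2 fell of 8 at 3 d after priming with DESeq2 in the authors' deposited tables. The edgeR counts, of 10 genes, were 3 and 5, 3 and 4, and 4 and 3. The DESeq2 counts at 4 h lie near the shares over all genes. P4hb, the subunit that P4ha1 and P4ha2 both need, stood at 0.02, 0.38 and -0.11 with DESeq2 and at -0.91, -0.03 and -0.24 with edgeR in the authors' deposited tables. The lysyl hydroxylase gene Plod3 was among the highest at 4 h (1.98) and 24 h (1.02) in the authors' deposited tables. Its relative Plod2 was higher at 4 h (1.31) and lower at 24 h (-1.40) and 3 d after priming (-1.04), with both tools, in the authors' deposited tables. Plod1 was among the lowest at 4 h (-0.59) and, with P3h3, among the highest at 3 d after priming (0.34 and 0.57) in the authors' deposited tables. P3h3, a prolyl 3-hydroxylase gene, was lowest at 4 h (-0.96) and 24 h (-2.34), and its relative P3h1 stood at 0.87 at 24 h in the authors' deposited tables.

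Receptors for VEGF and adrenomedullin moved unevenly. Of 11 tested genes of this list, 6 rose and 3 fell at 4 h, 6 rose and 5 fell at 24 h, and 6 rose and 4 fell at 3 d after priming with DESeq2 in the authors' deposited tables. The edgeR counts, of 13 genes, were 6 and 4, 6 and 5, and 5 and 4. Kdr, VEGF receptor 2, stood at 4.50, 3.87 and 1.49 in the authors' deposited tables, all called higher. Flt4, VEGF receptor 3, was the next highest at 4 h (3.39) in the authors' deposited table. Flt1, VEGF receptor 1, was higher at 4 h (2.28 ± 0.11) and lower at 24 h (-1.06 ± 0.18) and at 3 d after priming (-2.74 ± 0.17) in the authors' deposited tables. The ligand gene Vegfb was the lowest gene called at 4 h with DESeq2 (-1.30), the coreceptor gene Nrp1 stood at -1.14 there and at -2.85 at 24 h, and the ligand genes Vegfc (2.70 at 24 h, 1.51 later) and Pgf (1.59 at 3 d after priming) were higher in the authors' deposited tables.

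Calcrl, which forms the adrenomedullin receptor with Ramp2 or Ramp3, was chosen after its values were seen and stood at 2.85, 0.91 and 0.59 in the authors' deposited tables. Ramp2 stood at -1.39 ± 0.95, -2.17 ± 0.91 and -1.42 ± 0.47 in the authors' deposited tables, called lower with both tools at 24 h and 3 d after priming and with edgeR alone at 4 h. Ramp3 had no adjusted p from DESeq2 at any time in the authors' deposited tables. Ramp1, which turns the same protein into a receptor for another peptide, was lower at each time (-0.99, -4.52 and -3.61) in the authors' deposited tables. The endothelial markers Pecam1 (2.05, 2.96 and 1.87) and Cdh5 (3.07, 2.10 and 0.68, the last not called) were higher beside the VEGF receptors in the authors' deposited tables, while Tek was listed at 0 in the MPLA groups of 4 h and 24 h. Their part in the receptor values was not tested, and in bulk RNA fewer cells of a type cannot be told apart from less RNA per cell.

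The relatives of Mxi1 and Ndrg1 showed both directions. Of 10 tested, 5 rose and 4 fell at 4 h, 4 rose and 4 fell at 24 h, and 5 rose and 2 fell at 3 d after priming with DESeq2 in the authors' deposited tables. The edgeR counts, of 11 genes, were 4 and 6, 4 and 6, and 3 and 4. Mxd4, a MAX partner like Mxi1, was lower at each time (-4.74, -3.68 and -1.45) in the authors' deposited tables. Mxd3 was lower too, at -3.54 at 24 h and -1.00 at 3 d after priming, and Mnt was at -3.94 at 4 h in the authors' deposited tables. Mxd1, of the same family, was higher each time (3.29, 2.32 and 0.61) in the authors' deposited tables. Mycl, a MYC relative, was highest at 4 h (6.69) and 24 h (3.25), and Ndrg4 at 3 d after priming (2.19 ± 0.24) in the authors' deposited tables.

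The genes whose 3 values lay closest to those of Hif1a were named by the smallest Euclidean distance over the 3 log2 changes, among 14636 genes tested at each time with reads in both groups. They were Sh3bp2 (distance 0.07 log2 units), Dusp10 (0.09), Kbtbd8 (0.10), Cxcr6 (0.11) and Dcaf13 (0.17) in the authors' deposited tables. Sh3bp2, an adaptor protein gene, stood at 1.76, 1.03 and 0.78 in the authors' deposited tables, close to Hif1a at each time. Cxcr6 was not called at any time (DESeq2 adjusted p = 0.153, 0.329 and 0.253) in the authors' deposited tables. These distances rest on 3 comparisons that share their controls.

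Of 8 macrophage markers, all had reads in every group in the authors' deposited tables, among them Adgre1, Csf1r and Cd68. With DESeq2, 6 of the 8 were called higher and 1 lower at 4 h. The counts were 4 and 4 at 24 h and 5 and 3 at 3 d after priming. With edgeR they were 3 and 5, 3 and 5, and 4 and 3, beside the shares over all genes given above. Csf1r, the M-CSF receptor gene, was lower at each time with both tools (-1.01, -1.52 and -0.54) in the authors' deposited tables. Adgre1, an adhesion receptor gene of macrophages, was higher (1.22, 2.15 and 1.17) in the authors' deposited tables. So were Fcgr1 (3.07, 3.70 and 0.98) and Cd14 (2.34, 1.05 and 1.17). Mertk stood at 0.79, -1.69 and -0.71 and Lyz2 at 0.02, -1.50 and -1.43, both called lower with both tools at 24 h and 3 d after priming. Markers of T cells, B cells and natural killer cells mostly had no adjusted p from DESeq2 in the authors' deposited tables. Cd3g, Ncr1 and the neutrophil marker Ly6g were not listed under these symbols at any time. The neutrophil granule gene Camp was called higher with both tools at 24 h (3.49 ± 0.90) and 3 d after priming (1.43 ± 0.48) in the authors' deposited tables. With edgeR its values were 3.61 and 2.97, so the size at 3 d after priming depends on the tool. Elane had no adjusted p from DESeq2 at any time. Zbtb46, a dendritic cell marker, stood at 1.19, -1.50 and -0.11 with DESeq2, called higher at 4 h with that tool alone and lower at 24 h with both, in the authors' deposited tables. Klrb1c, a natural killer cell marker, was called lower at 24 h and was listed at 0 in that MPLA group in the authors' deposited table. Pdgfra, a fibroblast marker, was called higher at 4 h while listed at 0 in the controls in the authors' deposited table. The part of these cells in the values of Hif1a and its targets was not tested. Total reads per library are unknown here, and the unscaled ratios beside the edgeR columns of the authors' deposited tables would put the MPLA groups, if edgeR scaled by library totals, at 0.859, 0.934 and 2.32 times the depth of the controls at 4 h, 24 h and 3 d after priming.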

How the data were processed

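The 12 libraries were made from polyadenylated RNA with a stranded kit, per the labels' protocols. Tools listed in the submitters' processing notes are TopHat2, HTSeq, bcl2fastq, DESeq, DESeq2 and edgeR, with the build mm10; the sources used here do not say whether the authors counted by strand. The 3 tables used here compare groups, with no column for a single library. The authors deposited, per the file headers, log2 fold changes, p-values and adjusted p-values from DESeq2 and edgeR, an unscaled log2 ratio, baySeq likelihood scores (used as an alternative) and ranks (not used). The deposited log2 values run control over MPLA and were turned round. Their direction was taken from the order of groups in the comparisons and from Il6, Nos2, Ptgs2, Cxcl10 and Tnf, all strongly negative as deposited in the 4 h table.

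A gene was called at an adjusted p under 0.05 in the authors' deposited DESeq2 column, over all genes of the table; NA stayed not tested. Alternatives were the authors' edgeR column, Benjamini-Hochberg adjustment over every p-value the authors deposited, a threshold of 0.01, calls by both tools, a minimum of 2-fold and baySeq. Depth is unknown. Coordinates come from GENCODE M21 (GRCm38), sequences from RefSeq. Named genes were the 10 members, all HIF regulators, and from each other list the 2 highest and 2 lowest called genes per time, plus the 5 genes closest to Hif1a; 1 gene that the rule names is not reported here. The members, lists and rules were chosen with earlier results of these data known. The adjustment was tested on simulated data. The implied errors were recovered there from p-values built as Wald tests, an outcome fixed in advance. Whether the deposited p-values came from such a test was not tested. Python 3.11.15, numpy 2.4.6, pandas 2.3.3, scipy 1.17.1 and matplotlib 3.10.9 were used.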

Additional observations from a re-analysis of the deposited data

How the results depend on the processing

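For the 9 genes with a fold at 3 times, 24 of 27 values kept their direction and their side of the threshold with the authors' edgeR columns, and 3 passed there only (P4ha2 and Ankrd37 at 24 h, Egln3 at 3 d after priming). Without the filter on low counts 26 of 27 calls were kept, and Egln3 at 4 h no longer passed. Unscaled ratios and values minus the median have no test of their own and show direction only. Of the unscaled ratios 26 of 27 kept it, and Mxi1 at 3 d after priming was 0.33, against -0.87 with edgeR. Unscaled ratios carry no correction for depth, put above at 2.32 times the controls at that time if edgeR scaled by library totals. The cause of the Mxi1 value was not tested. Values minus the median kept it in 27 of 27, an outcome fixed in advance. The medians were -0.038, -0.055 and -0.016, and the value of smallest size was -0.069 (P4ha2 at 24 h). Of 36 alternative counts, 30 stayed within 1.5 times, by the number called in either direction. That rule does not see a change of direction. The further pathway genes at 4 h count as kept with edgeR (71 called, 66 with DESeq2). Yet 40 higher and 26 lower with DESeq2 became 26 higher and 45 lower with edgeR. With a minimum of 2-fold, 4 of the 10 genes were called at 3 d after priming (8 without it), and 43, 41 and 17 of the further pathway genes at 4 h, 24 h and 3 d after priming (66, 73 and 61 without it); that rule can only remove genes. With baySeq, added after the data were seen, 5 of the 10 and 40 of the further genes were called at 3 d after priming, and the cause was not tested. Of the 10, those that no longer passed there were Egln1, Vegfa and Ankrd37 (baySeq adjusted scores 0.0501, 0.0568 and 0.0570). The values of Egln1 and Vegfa above the controls at that time thus did not pass with baySeq. No paired analysis was possible because the tables hold no values per library, and leaving out each replicate was not run for the same reason. Without counts, the reads behind Egln3, Adm and Ankrd37 cannot be given.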
